A study of Mus musculus with 6 samples.

Results

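Genes of protein folding and folding stress in the endoplasmic reticulum (ER) were examined in primary mouse hepatic stellate cells. The 10 genes are Ern1, Atf6, Xbp1, Hspa5, Hsp90b1, Dnajb9, Sdf2l1, Calr, Pdia4 and Pdia6. They were chosen by symbol from the 22966 genes of the deposited count table, all 10 were found there, and all 10 passed the filter on low counts. The series measured 6 RNA sequencing libraries, 3 titled Cre and 3 titled flox. All 6 carried the same genotype entry, which names a hepatocyte (ΔHep) allele of the gene called Buche in the labels, and the same carbon tetrachloride (CCl4) treatment, a liver toxin used to produce fibrosis. The groups therefore rest on the titles alone. The series title concerns butyrylcholinesterase and muscarinic signalling to stellate cells, and its design text describes stellate cells from mice with a knockout in hepatocytes. As described there, the deletion was made in a cell type other than the stellate cells. The labels name neither the age of the mice, nor the promoter that drives Cre, nor the number of animals behind a library. The p-values therefore measure only the spread between these libraries, which may be technical.

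Proteins that enter the ER are folded by chaperones such as BiP, the product of Hspa5, by the lectin chaperone calreticulin and by disulphide isomerases. When unfolded proteins accumulate, sensors in the ER membrane start the unfolded protein response. IRE1 alpha, encoded by Ern1, splices Xbp1 mRNA, and ATF6 is cut to release a transcription factor, and both routes raise chaperone genes. Activated stellate cells secrete large amounts of collagen, which passes through this machinery.

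Many chaperone promoters carry the ER stress response element (ERSE), the letters CCAAT and CCACG separated by 9 bases of any kind, which is bound by NF-Y together with ATF6 or XBP1. RefSeq promoter windows of the mouse build GRCm38.p6, from 250 bases before the start site to 50 bases after it, were found for 9 of the 10 genes, Atf6 being the one not analysed here. Searched on both strands, the ERSE letters occurred in 4 of the 9 windows (44.4%). They occurred in 39 of all 32851 windows (0.119%) and in 6 of 108 windows of the other ER genes described further on (5.56%). All windows covered 27025 genes and those of the other ER genes 91, so some genes there had more than 1 window. The 9 genes were chosen for known roles in ER folding and stress, and ERSE is known from such promoters. The contrast thus follows in part from that choice and carries no test. The 4 windows, of Hspa5, Hsp90b1, Calr and Pdia6, are shown because they hold these letters, with the fixed letters of each match in capitals and bases running 5′ to 3′ on the gene's strand. In Hspa5 the match lay at -65 to -47 from the start site, in Pdia6 at -98 to -80 and, on the opposite strand, in Calr at -162 to -144. Hsp90b1 held a pair, at -212 to -194 and, on the opposite strand, at -107 to -89.
Hspa5 (chr2:34771840-34772139, plus strand): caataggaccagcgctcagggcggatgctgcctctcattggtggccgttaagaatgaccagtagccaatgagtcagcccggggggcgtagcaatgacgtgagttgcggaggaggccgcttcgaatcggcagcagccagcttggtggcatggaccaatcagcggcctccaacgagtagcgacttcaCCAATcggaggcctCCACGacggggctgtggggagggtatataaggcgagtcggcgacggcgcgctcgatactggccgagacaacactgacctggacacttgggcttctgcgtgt
Hsp90b1 (chr10:86705395-86705694, minus strand): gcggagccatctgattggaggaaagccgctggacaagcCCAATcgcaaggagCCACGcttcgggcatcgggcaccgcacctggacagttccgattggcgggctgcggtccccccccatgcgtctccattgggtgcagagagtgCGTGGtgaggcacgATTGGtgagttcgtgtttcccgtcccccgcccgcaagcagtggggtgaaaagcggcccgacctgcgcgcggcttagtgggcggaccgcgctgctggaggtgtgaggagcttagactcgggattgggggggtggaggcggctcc
Calr (chr8:84846882-84847181, minus strand): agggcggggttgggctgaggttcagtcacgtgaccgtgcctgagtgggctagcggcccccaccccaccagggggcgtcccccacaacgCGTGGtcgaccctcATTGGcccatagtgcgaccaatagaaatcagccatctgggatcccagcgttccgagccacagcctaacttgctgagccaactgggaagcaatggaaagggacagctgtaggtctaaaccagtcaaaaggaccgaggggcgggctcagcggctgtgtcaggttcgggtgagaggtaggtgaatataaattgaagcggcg
Pdia6 (chr12:17266339-17266638, plus strand): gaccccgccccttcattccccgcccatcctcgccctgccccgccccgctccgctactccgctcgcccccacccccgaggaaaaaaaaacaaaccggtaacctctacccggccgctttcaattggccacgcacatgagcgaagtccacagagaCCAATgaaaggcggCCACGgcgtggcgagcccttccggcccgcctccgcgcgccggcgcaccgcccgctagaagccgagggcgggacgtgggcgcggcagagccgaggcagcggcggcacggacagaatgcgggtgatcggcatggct
The windows of Pdia4, Dnajb9, Sdf2l1, Xbp1 and Ern1 held no match, and that of Ern1 is shown because this gene had the lowest p of the 10.
Ern1 (chr11:106487747-106488046, minus strand): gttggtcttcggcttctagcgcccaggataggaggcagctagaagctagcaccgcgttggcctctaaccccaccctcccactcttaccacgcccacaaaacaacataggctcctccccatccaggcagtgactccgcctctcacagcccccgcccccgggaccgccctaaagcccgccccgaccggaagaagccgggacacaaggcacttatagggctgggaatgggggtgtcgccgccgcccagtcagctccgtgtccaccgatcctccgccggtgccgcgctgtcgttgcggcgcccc
The same search found ERSE-II (ATTGG and CCACG separated by 1 base of any kind) and TGACGTGG (an XBP1 element, UPRE) in 0 of the 9 windows, against 0.0365% and 0.676% of all windows. The CCACG end is shared by ERSE and ERSE-II. A match is a string of letters and not a measured binding site, and windows without one may hold variants that were not searched.

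The libraries held 37273142 to 41006722 counts. Of the 15 stellate markers, among them Lrat, Des, Pdgfrb and Col1a1, 0 were at 0 in all libraries, and their summed level was 2407 to 3729 CPM (counts scaled to a common library total, with factors from the trimmed mean of M-values, TMM) in Cre libraries and 1349 to 3164 CPM in flox libraries. Of them 3 passed the test (edgeR adjusted p below 0.05) as higher in Cre and 0 as lower, with log2 fold changes from -1.36 (Lrat) to 1.24 (Reln). Over all genes tested 6.35% were higher and 8.94% lower in Cre, which is the background of the other marker counts too. Macrophage RNA was present too and was lower in Cre. The 20 macrophage markers summed to 2774 to 3441 CPM in Cre libraries, against 19829.6, 25198 and 9033 CPM in flox 1, 2 and 3, with 18 of 20 past the test as lower in Cre, 0 higher and 0 at 0 in all libraries. The flox 3 library stood apart from the other flox libraries in this sum and lay between them and the Cre libraries on the first principal component, at 7.63, with the Cre libraries at -68.5 to -42.2 and flox 1 and 2 at 68.0 and 94.9. Mesothelial markers summed to 706 and 823 CPM in Cre 1 and 2 but 202 CPM in Cre 3, against 176 to 261 CPM in flox libraries. The summed hepatocyte (71.2 to 328 CPM in Cre, 187 to 618 CPM in flox), endothelial (1906 to 3067 CPM in Cre, 1429 to 3697 CPM in flox) and B and plasma cell markers (89.3 to 416 CPM in Cre, 134 to 327 CPM in flox) overlapped between groups, and 2 of the 9 endothelial genes, but 0 of the tested hepatocyte, mesothelial or B and plasma cell genes, passed, both as lower in Cre. Of the genes of these lists in the table, 0 were at 0 throughout. In such bulk libraries fewer cells of a type and less RNA per cell cannot be told apart.

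Of the 10 genes, 0 passed the test in either direction between Cre and flox libraries, with log2 fold changes, Cre over flox, from -0.61 for Sdf2l1 to 0.54 for Ern1. The background in the same comparison was 15.3% of 14795 genes tested, 6.35% higher and 8.94% lower in Cre, at an adjusted p below 0.05 in edgeR's quasi-likelihood test with Benjamini-Hochberg adjustment. At an unadjusted p below 0.05 there was 1 of 10, Ern1, against 34.8% of all genes tested. DESeq2 called 1 gene, also Ern1, where its background was 29.3%, and at an edgeR adjusted p below 0.10 Ern1 passed as 1 of 10, against 26.9% of all genes tested. The median log2 fold change was 0.03 for the 10 genes and 0.01 for all genes tested. Without flox 3 it was -0.06 for the 10 genes and 0.04 for all genes tested. With the mean of the macrophage markers as a covariate it was 0.58 for the 10 genes and 0.09 for all genes tested. That covariate differs between the groups, so the 2 can be told apart only in part. In that fit 0 of the 10 genes had an unadjusted edgeR p below 0.05. With all 6 libraries and no covariate, the median size of the change without its sign was 0.21 for the 10 genes and 0.39 for all genes tested. The 10 genes together took 0.438%, 0.487% and 0.452% of the counts of Cre 1, 2 and 3, against 0.451%, 0.386% and 0.353% of those of flox 1, 2 and 3. The highest share was thus in Cre 2 and the lowest in flox 3, with flox 1 among the Cre values. In CPM, the groups lay apart without overlap for 2 of 10 genes, both higher in Cre, where the background was 39.6% in either direction, 19.6% higher and 20% lower.

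**Figure D1:**
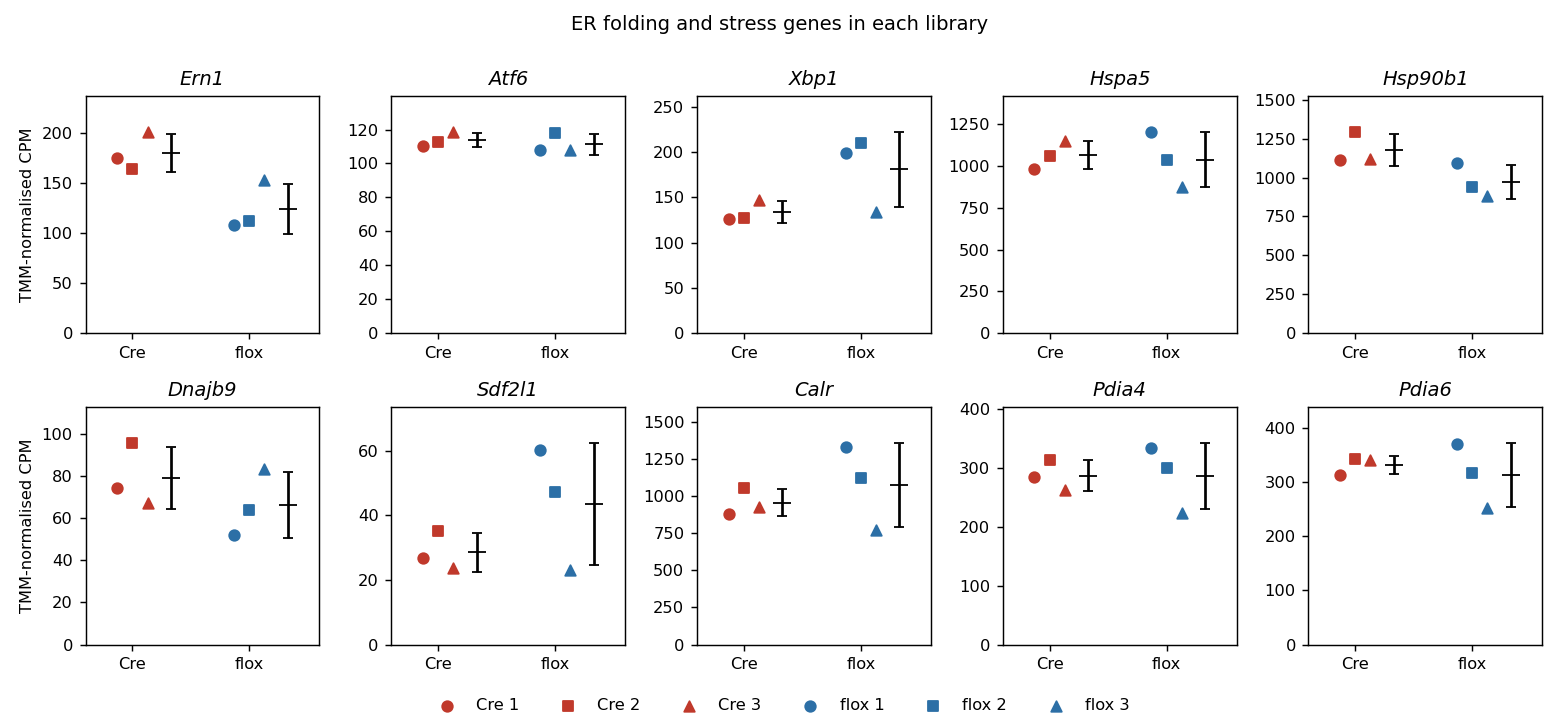
TMM-normalised CPM of the 10 genes in each library, with Cre left of flox. Symbols are single libraries and the black bar is the mean with its SD (n = 3). Ern1 and Hsp90b1 are the panels without overlap between groups, and flox 3 is the lowest or highest flox library in each panel.

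Of the 10 genes, Ern1 had the highest log2 fold change towards Cre. Ern1 (chromosome 11, 106394650 to 106487852 in GRCm38, GENCODE M21) had 174, 164 and 201 CPM in Cre 1, 2 and 3, against 108, 112 and 153 CPM in flox 1, 2 and 3. Every Cre library lay above every flox library, and flox 3 was the flox library nearest to Cre. The log2 fold change was 0.54 ± 0.17 (standard error, n = 3 per group), with a 95% interval of 0.14 to 0.93 (a fold of 1.45, from 1.10 to 1.91), and it did not pass after adjustment (edgeR adjusted p = 0.0728). It was past the threshold without flox 3, at 0.72 (edgeR adjusted p = 0.00647), and its adjusted p ran from 0.00647 to 0.937 over the alternatives. With the mean of the macrophage markers as a covariate it was -0.10 (edgeR adjusted p = 0.937). The part of macrophage RNA in the difference was not tested.

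Atf6, the other sensor of the set, was the steadiest of the 10 genes. It had 110.4, 112 and 119 CPM in Cre 1, 2 and 3, against 108, 118 and 108 CPM in flox 1, 2 and 3. The groups overlapped within a narrow range, with coefficients of variation of 3.77% in Cre and 5.45% in flox. Its log2 fold change of 0.03 ± 0.09 had a 95% interval of -0.19 to 0.26 (edgeR adjusted p = 0.832), so changes beyond a fold of 0.877 to 1.19 lay outside the interval.

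Xbp1, the transcription factor gene whose mRNA IRE1 alpha splices, lay on the other side of 0 from Ern1. Xbp1 (chromosome 11, 5520659 to 5525893) had 126, 128 and 147 CPM in Cre 1, 2 and 3, against 199, 211 and 134 CPM in flox 1, 2 and 3. The flox 3 value lay among the Cre values, and flox 1 and 2 lay above all of them. The log2 fold change was -0.44 ± 0.19 (95% interval -0.88 to 0.0048, edgeR adjusted p = 0.147). Without flox 3 it was -0.61 and passed (edgeR adjusted p = 0.00764), and with the macrophage covariate it was 0.67 (edgeR adjusted p = 0.471). The macrophage sum was also lower in flox 3 than in flox 1 and 2, and its part in the Xbp1 values was not tested. Counts per gene do not separate the spliced from the unspliced Xbp1 mRNA, so splicing was not measured. Taken per length, as FPKM (fragments per kilobase of gene length, scaled to library totals), Ern1 stood at 0.441, 0.411 and 0.436 times the Xbp1 level in Cre 1, 2 and 3, against 0.173, 0.170 and 0.364 times in flox 1, 2 and 3. This ratio was chosen after the values were seen and carries no test.

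The major chaperone Hspa5 (BiP) did not differ beyond the spread between libraries. It had 983, 1060.5 and 1148 CPM in Cre 1, 2 and 3, against 1204, 1033 and 875 CPM in flox 1, 2 and 3. All 3 Cre values fell inside the flox range. The log2 fold change was 0.04 ± 0.15 with a 95% interval of -0.33 to 0.40, or folds of 0.795 to 1.32 (edgeR adjusted p = 0.889), and without flox 3 it was -0.07.

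Hsp90b1, which encodes GRP94, the ER form of HSP90, was the second gene without overlap. Hsp90b1 (chromosome 10, 86690209 to 86705509) had 1113, 1293 and 1120.0 CPM in Cre 1, 2 and 3, against 1091, 941 and 880.3 CPM in flox 1, 2 and 3. The gap between the lowest Cre and the highest flox library was small beside the range within either group. Its log2 fold change was 0.28 ± 0.14 (95% interval -0.05 to 0.60, edgeR adjusted p = 0.202). On log2(FPKM + 1), with genes of a mean FPKM of at least 1, both Hsp90b1 (0.44, limma-trend adjusted p = 0.0464) and Ern1 (0.67, limma-trend adjusted p = 0.0468) passed, where 20.4% of genes tested did. Exons of Hsp90b1 overlap those of 1810014B01Rik on the other strand and those of Gm15344 and Gm25745 on the same strand, so reads of the last pair could not be told apart from its own by strand.

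The estimates for the BiP partners Dnajb9 and Sdf2l1 differed in sign, but both intervals held 0. With the macrophage covariate both signs turned, to -0.76 for Dnajb9 and 0.92 for Sdf2l1. Dnajb9 encodes ERdj4, a co-chaperone of BiP. It had 74.2, 95.5 and 67.3 CPM in Cre 1, 2 and 3, against 51.9, 63.9 and 83.0 CPM in flox 1, 2 and 3. The groups overlapped through flox 3, the highest flox library, and the log2 fold change was 0.25 ± 0.21 (95% interval -0.25 to 0.75, edgeR adjusted p = 0.424). Sdf2l1 encodes a soluble ER protein that acts with BiP co-chaperones. It had 26.8, 35.2 and 23.6 CPM in Cre 1, 2 and 3, against 60.3, 47.2 and 23.1 CPM in flox 1, 2 and 3. Here flox 3 was the lowest of all 6 libraries and flox 1 and 2 lay above the Cre libraries. The log2 fold change of -0.61 ± 0.35 was the most negative of the 10 and had the widest interval, -1.44 to 0.22 (edgeR adjusted p = 0.261). Without flox 3 Sdf2l1 was at -0.91 and passed (edgeR adjusted p = 0.0176), as did Ern1 and Xbp1, so that 3 of 10 genes were called there, against 34.8% of the genes tested in that fit.

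Calr, the gene of calreticulin, which binds glycoproteins and calcium, varied most among flox libraries of the abundant genes. It had 879.7, 1058 and 929 CPM in Cre 1, 2 and 3, against 1329.7, 1124 and 769 CPM in flox 1, 2 and 3. The flox values thus ran both above and below all Cre values, with the highest 1.73 times the lowest, against 1.20 times among Cre libraries. The log2 fold change was -0.17 ± 0.21 (95% interval -0.68 to 0.34, edgeR adjusted p = 0.607), and its sign turned without flox 1 (0.03) and on the FPKM scale (0.02).

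The products of the disulphide isomerase genes Pdia4 (ERp72) and Pdia6 (P5) form and rearrange disulphide bonds. Both genes had the same order of flox libraries as Hspa5, Hsp90b1, Sdf2l1 and Calr. Pdia4 had 284, 313 and 261 CPM in Cre 1, 2 and 3, against 333, 299.8 and 224 CPM in flox 1, 2 and 3. Pdia6 had 313, 342 and 340.1 CPM in Cre 1, 2 and 3, against 371, 316 and 253 CPM in flox 1, 2 and 3. For both, all Cre values lay within the flox range. Their log2 fold changes were 0.0035 ± 0.17 for Pdia4 (95% interval -0.40 to 0.41, edgeR adjusted p = 0.992) and 0.08 ± 0.16 for Pdia6 (95% interval -0.29 to 0.46, edgeR adjusted p = 0.737). Exons of Pdia4 overlap Mir704 on the same strand, those of Dnajb9 overlap Mir5627 on the other strand, and those of Pdia6 overlap those of Atp6v1c2 on the other strand, and the labels do not say whether counting used strand.

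**Figure D2:**
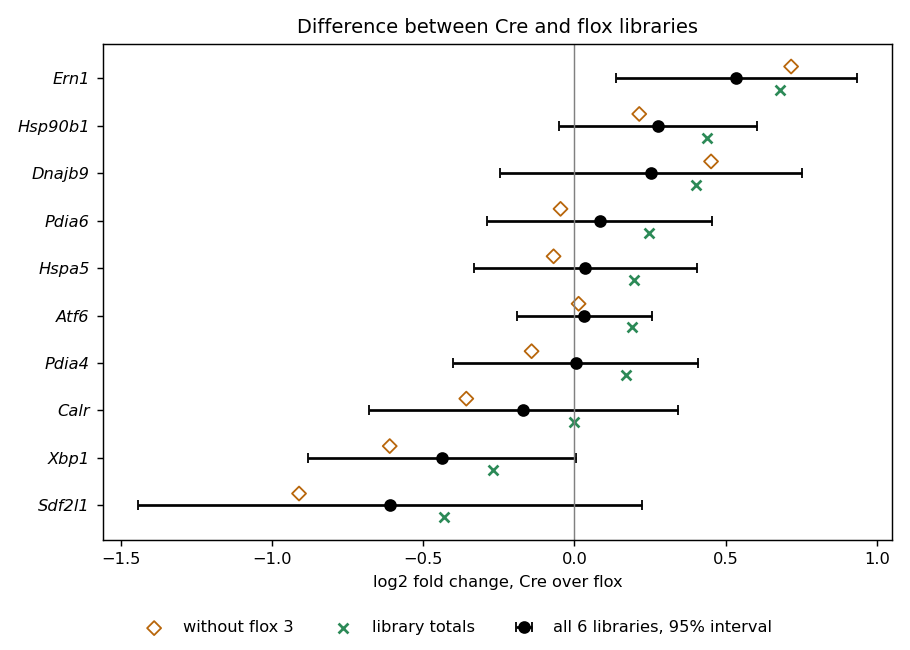
Log2 fold change, Cre over flox, of the 10 genes with 95% intervals from edgeR (black), and the value without flox 3 (open diamonds) and with library totals in place of TMM factors (crosses). The interval of Ern1 alone leaves out 0, and library totals shift the genes towards Cre by about the 0.16 by which they shift the median of all genes.

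A missed threshold does not show that levels were alike, and the intervals state what size was left. Of the 10 intervals, 9 held 0 and 9 lay within -1 and 1 on the log2 scale, the one reaching beyond being that of Sdf2l1. The 4 genes with ERSE letters, Hspa5, Hsp90b1, Calr and Pdia6, had log2 fold changes of 0.04, 0.28, -0.17 and 0.08, and 0 of the 4 passed. Scaling to library totals moved the median of all genes by 0.16 and that of the 10 genes to 0.19, and again 0 of 10 passed in edgeR, where 16.8% of genes tested did. With that scaling 1415 genes of the whole table were higher and 1066 lower, against 940 higher and 1323 lower with TMM factors.

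The spread within groups was uneven. For 10 of 10 genes the coefficient of variation was larger among flox than among Cre libraries, as it was for 61.7% of all genes tested, and its median was 19.9% in flox against 8.96% in Cre (19.4% and 13.8% over all genes tested). Among flox libraries, flox 3 was the lowest for 8 of 10 genes, Atf6 by a margin of under 1 CPM, where 44.9% of all genes tested had flox 3 lowest, and it was the highest for Ern1 and Dnajb9. Sdf2l1 had the widest flox range, with the highest library 2.61 times the lowest, against 1.49 times in Cre. These shares describe 6 libraries in which the genes are not independent of each other.

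Levels between genes were compared per length, in FPKM, which the authors scaled to library totals alone. Calr was the highest of the 10 in every library, at 519 ± 49.6 FPKM in Cre and 519.5 ± 118 FPKM in flox (SD, n = 3 each). Hspa5 (429 ± 26.4 FPKM in Cre, 374 ± 47.3 FPKM in flox) and Hsp90b1 (450.2 ± 40.1 FPKM in Cre, 333 ± 30.7 FPKM in flox) followed. Within each group the ranges of Hspa5 and Hsp90b1 overlapped each other. Hsp90b1 was above Hspa5 in Cre 1 and Cre 2 and below it in the other 4 libraries. Pdia6 (163 ± 6.24 FPKM in Cre, 138 ± 21.1 FPKM in flox) and Pdia4 (114 ± 11.4 FPKM in Cre, 101 ± 15.8 FPKM in flox) held the next places in all 6 libraries, followed by Xbp1 (62.9 ± 4.56 FPKM in Cre, 75.8 ± 13.5 FPKM in flox). Dnajb9 (44.8 ± 8.56 FPKM in Cre, 33.9 ± 9.83 FPKM in flox), Sdf2l1 (27.2 ± 5.86 FPKM in Cre, 36.7 ± 14.9 FPKM in flox) and Ern1 (27.0 ± 2.52 FPKM in Cre, 16.9 ± 4.40 FPKM in flox) changed places among the libraries. Atf6 was lowest throughout, at 14.7 ± 0.321 FPKM in Cre and 12.9 ± 0.552 FPKM in flox. Calr, Hspa5 and Hsp90b1 thus stood more than an order of magnitude above their sensors Atf6 and Ern1 in each library.

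**Figure D3:**
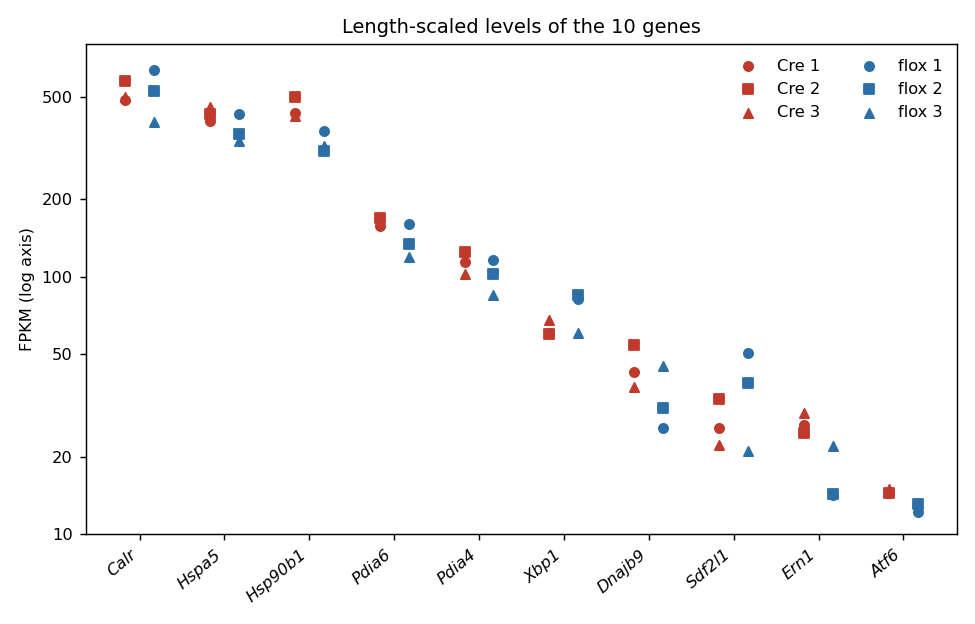
FPKM of the 10 genes in each library on a log axis, in order of their mean, with Cre left of flox for each gene. Calr is highest and Atf6 lowest in all 6 libraries, and the symbols of Dnajb9, Sdf2l1 and Ern1 overlap each other.

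The wider ER pathway was read from the same test. Of 118 other ER genes in 6 groups, 113 were tested, of which 10 were higher and 3 lower in Cre, or 13 in all (11.5%), against the background of 15.3%. The shares over all genes, 6.35% higher and 8.94% lower, are the background of each group's counts as well. With library totals 21 were higher and 1, Aup1, was lower, against 9.56% higher and 7.21% lower over all genes, while Ddit3 and Edem2 missed the threshold (edgeR adjusted p of 0.0627 and 0.0652). The number of calls moved when 1 library was left out, as it did over all genes. Without Cre 1, Cre 2, flox 1 or flox 2 it was 0, but 0 genes of the whole table passed there. That 0 thus shows nothing about these genes, of which 23 to 25 had an unadjusted edgeR p below 0.05. Leaving out Cre 3 left 5, and leaving out flox 3 gave 37 (32.7% of the 113), against 34.8% of all genes in that fit. With the macrophage covariate 0 passed, but only 84 of all 14795 genes tested passed in that fit.

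Among other chaperones and co-chaperones, 2 of 15 tested genes rose in Cre and 0 fell, against 6.35% higher over all genes, with a median log2 fold change of 0.12. Dnajc10, the ER reductase and BiP co-chaperone ERdj5, rose to 191, 199 and 192 CPM in Cre 1, 2 and 3, against 129, 128 and 135 CPM in flox 1, 2 and 3 (0.57 ± 0.09, edgeR adjusted p = 0.0237). The Cre and flox libraries were each within a few CPM of their own group. Fkbp11, an ER prolyl isomerase, rose to 17.6, 16.3 and 20.5 CPM in Cre 1, 2 and 3, against 6.75, 3.33 and 8.33 CPM in flox 1, 2 and 3 (1.56 ± 0.34, edgeR adjusted p = 0.0318). The translocon partner Sec63 (0.37 ± 0.10) and the HSP70 relative Hspa13 (0.52 ± 0.15) did not pass (edgeR adjusted p of 0.0513 and 0.0614).

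Of 17 tested disulphide isomerases and oxidases 3 rose and 0 fell, against 6.35% higher over all genes, with a median of 0.08. They were the isomerases Txndc5, at 263 ± 15.6 CPM in Cre against 176 ± 22.0 CPM in flox (0.58 ± 0.12), and Pdia5, at 24.8 ± 5.68 CPM in Cre against 15.0 ± 0.91 CPM in flox (0.73 ± 0.19), and the oxidase Ero1a, which recharges isomerases, at 121 ± 24.3 CPM in Cre against 73.9 ± 10.3 CPM in flox (0.71 ± 0.18). Their edgeR adjusted p values were 0.0318, 0.0497 and 0.0469. Exons of Txndc5 overlap those of Bmp6. Erp29, a redox-inactive relative of the isomerases, was at 78.3 ± 2.16 CPM in Cre against 156 ± 55.8 CPM in flox (-0.998 ± 0.27, edgeR adjusted p = 0.0529), and flox 3, at 92.0 CPM, was near the Cre libraries.

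Of 17 other sensors and effectors of the unfolded protein response, 1 rose and 1 fell, against 6.35% higher and 8.94% lower over all genes, with a median of 0.21, and Ern2 had 0 counts in all libraries. Ddit3, which encodes CHOP, a factor tied to cell death under ER stress, fell to 41.2, 38.5 and 37.1 CPM in Cre 1, 2 and 3, against 59.5, 54.2 and 55.0 CPM in flox 1, 2 and 3 (-0.53 ± 0.10, edgeR adjusted p = 0.0255). The groups were well apart, and exons of Ddit3 overlap those of Mars. The stress factor Atf5 rose to 146 ± 23.1 CPM in Cre, against 85.0 ± 10.7 CPM in flox (0.78 ± 0.16, edgeR adjusted p = 0.0284), with exons that overlap Il4i1 and Nup62. Tmbim6, an inhibitor of ER stress-related death (-0.62 ± 0.17), and Mbtps1, the protease that makes the first cut in ATF6 (0.35 ± 0.10), did not pass (edgeR adjusted p of 0.0525 and 0.0612).

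In ER-associated degradation, which returns misfolded proteins to the proteasome, 0 of 25 tested genes rose and 2 fell, against 8.94% lower over all genes, with a median of -0.13 that turned to 0.03 with library totals. Aup1, a lipid droplet and degradation factor, fell to 98.5 ± 9.92 CPM in Cre, against 155 ± 14.6 CPM in flox (-0.65 ± 0.12, edgeR adjusted p = 0.0256), with exons that overlap Htra2. Edem2, which trims mannose on misfolded glycoproteins, fell to 41.9 ± 0.754 CPM in Cre, against 65.4 ± 14.7 CPM in flox (-0.64 ± 0.17, edgeR adjusted p = 0.0498). The flox library nearest to Cre was flox 3, at 51.0 CPM, and the call lay at the threshold. Edem2 passed in DESeq2 (adjusted p = 0.00864) and missed in limma-voom (adjusted p = 0.0679). The ligase Rnf5 (-0.61 ± 0.21) and the channel protein Derl2 (-0.29 ± 0.10) did not pass (edgeR adjusted p of 0.0956 and 0.102).

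In translocation and signal peptide processing 1 of 22 rose and 0 fell, against 6.35% higher over all genes, with a median of 0.12. It was the translocon-associated subunit Ssr1, at 319.8 ± 29.8 CPM in Cre against 228 ± 10.3 CPM in flox (0.49 ± 0.11, edgeR adjusted p = 0.0367). Its partner Ssr3 (0.50 ± 0.14), the signal recognition receptor subunit Srprb (0.33 ± 0.10) and the signal peptidase subunit Spcs3 (0.40 ± 0.15) had edgeR adjusted p values of 0.0538, 0.0598 and 0.104. In N-glycosylation and glycoprotein control 3 of 17 rose and 0 fell, against 6.35% higher over all genes, with a median of 0.16. The folding-sensing glucosyltransferases Uggt1 (232 ± 8.85 CPM in Cre against 174 ± 11.0 CPM in flox, 0.41 ± 0.10) and Uggt2 (10.3 ± 0.968 CPM in Cre against 5.32 ± 0.274 CPM in flox, 0.96 ± 0.17) and the cargo receptor Lman1 (198 ± 5.93 CPM in Cre against 144 ± 7.73 CPM in flox, 0.46 ± 0.09) had edgeR adjusted p values of 0.0401, 0.0250 and 0.0292. The oligosaccharyltransferase subunit Stt3a was at 0.36 ± 0.10 (edgeR adjusted p = 0.0564). Differences between groups of genes in these counts were not tested.

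**Figure D4:**
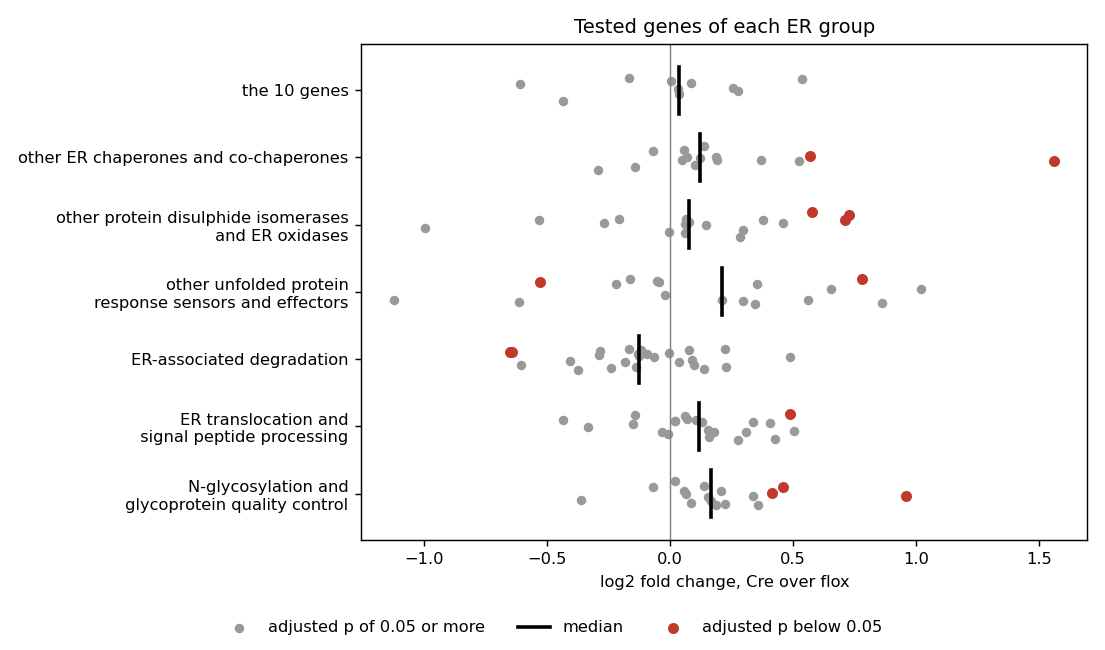
Log2 fold change, Cre over flox, of every tested gene in the set of 10 and in the 6 other ER groups. Red points passed an edgeR adjusted p of 0.05 (0 of the 10 genes, 10 higher and 3 lower among the others), and black bars are group medians, from -0.13 in ER-associated degradation (0.03 with library totals) to 0.21 in the other sensors and effectors.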

How the data were processed

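Column-purified RNA was made into SMARTER mRNA libraries, per the labels' protocols. The deposited count table holds raw counts per gene symbol, and the FPKM that the authors deposited equal the count over the library total and 1 length per gene (0 of 11560 genes with over 50 counts per library departed by over 1e-05). GRCm38, mm10 and hg38 are named with no role in the submitters' processing notes. The sources used here name no aligner, counter, annotation or strand setting. Genes were compared with edgeR 4.0.16 (quasi-likelihood F-test; R 4.3.3) on the counts after filterByExpr (minimum count 10, total 15; 14795 genes kept, 8171 removed) with TMM factors and no covariate, two-sided, Benjamini-Hochberg over all genes tested. Standard errors are absolute log2 fold changes over the square root of F, and 95% intervals use the t quantile of the test's degrees of freedom. An exact permutation of 3 against 3 libraries reaches p = 0.10 at the lowest and was not used. Alternatives used DESeq2 1.42.0, limma 3.58.1, other scalings, filters and FPKM pseudocounts of 1 and 0.1, a macrophage covariate, a replicate block and each library left out. Methods were tried on simulated counts. Replicates differed beyond sampling noise, with at least 31.7 chi-square per gene. The 10 genes and the gene lists were chosen with earlier results of these data known. Named are the 10 genes and the 4 tested genes of lowest p in each other list. Positions and exon overlaps come from GENCODE M21, and promoter windows from RefSeq, GRCm38.p6.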

Additional observations from a re-analysis of the deposited data

How the results depend on the processing

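The count of 0 of the 10 genes held in edgeR under other scalings and other filters, in limma-voom and on FPKM with either pseudocount and the edgeR gene filter. It was 0 with the macrophage covariate too, but only 84 of 14795 genes passed there, so that 0 shows little about these genes. In the replicate block, at an adjusted p below 0.01 and without Cre 1, Cre 2, flox 1 or flox 2, 0 genes of the whole table passed, so the 0 of 10 there shows nothing about these genes (4296 genes in the block and 3562 to 3978 without those libraries had an unadjusted p below 0.05). It became 1 in DESeq2, 1 at an adjusted p below 0.10 (Ern1 each time) and 2 on genes of a mean FPKM of at least 1, and ran from 0 to 3 with 1 library left out, the 3 being without flox 3. Over all genes the count of 2263 became 4334 in DESeq2, 1404 in limma-voom, 84 with the macrophage covariate, 0 with the replicate block, 0 below 0.01 and 3986 below 0.10, and ran from 0 to 5329 with 1 library left out. The 13 of 113 other ER genes became 22 with library totals, where 16.8% of all genes passed, and 26 in DESeq2, where 29.3% did. They became 25 on each FPKM scale. Over all genes these scales gave 2142 of 14795 (pseudocount 1), 2388 of 14795 (pseudocount 0.1) and 2322 of 11371 (mean FPKM of at least 1). With library totals and on each FPKM scale their share thus lay above that over all genes. With TMM factors in edgeR it lay below (11.5% against 15.3%). The count was 0 with the macrophage covariate, 0 with the replicate block, 0 below 0.01 and 23 below 0.10. It ran from 0 to 37 with 1 library left out. The causes were not tested.

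Signs turned with the macrophage covariate for Xbp1 (0.67), Ern1 (-0.10), Dnajb9 (-0.76), Sdf2l1 (0.92), Calr (0.68), Hspa13 (-0.035), Erp29 (0.69), Tmbim6 (0.22), Edem2 (0.34) and Rnf5 (0.69), at edgeR adjusted p values above 0.05. Of the called other ER genes that kept their sign with it, some lay nearer 0 than without it. They were Fkbp11 (0.19), Aup1 (-0.19), Ssr1 (0.23), Ero1a (0.28), Dnajc10 (0.41), Lman1 (0.42), Ddit3 (-0.47) and Atf5 (0.54). Uggt1 (0.48), Txndc5 (0.74), Pdia5 (1.05) and Uggt2 (1.05) lay farther from 0. The macrophage covariate differs between the groups, so group and covariate can be told apart only in part. Calr was at 0.021 on each FPKM scale and 0.027 without flox 1. Pdia4 was at -0.00062 with RLE factors, -0.00061 in DESeq2, -0.037 without Cre 2 and -0.14 without flox 3, where Hspa5 was at -0.069 and Pdia6 at -0.046. With 1 library left out the log2 fold changes ran from -0.069 to 0.17 for Hspa5, -0.36 to 0.027 for Calr, -0.14 to 0.14 for Pdia4 and -0.046 to 0.23 for Pdia6.

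The labels do not say whether replicate numbers pair the libraries. Deviations of same-numbered libraries from their group means correlated across genes at -0.03, -0.09 and -0.05, and no library correlated best with its own number. These values gave no sign of pairing but cannot exclude it. In the replicate block fit Ern1 was at 0.55 (edgeR adjusted p = 0.0876), Xbp1 at -0.42 (0.264) and Hspa5 at 0.05 (0.887). The lowest count of any of the 10 genes was 929 (Sdf2l1 in flox 3), so the number of libraries limits these values more than their depth does.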
